A study of Rattus norvegicus with 6 samples.

Results

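Bone morphogenetic proteins (BMPs) are secreted ligands of the TGF-beta superfamily. They bring together a type I receptor kinase, such as the one encoded by Bmpr1a, and a type II receptor kinase, such as the one encoded by Bmpr2, and the activated type I receptor phosphorylates the transcription factors Smad1, Smad5 and Smad9, which enter the nucleus with Smad4. The Id genes are among the best-known immediate targets of these Smads. Id proteins have a helix-loop-helix domain without a DNA-binding region, so that they hold E proteins and related factors in dimers that cannot bind DNA. In the developing kidney, Bmp7 sustains the nephron progenitors and Bmp4 acts on the growth of the ureter and its branches.

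The genes described here are the ligand genes Bmp2, Bmp4, Bmp6 and Bmp7, the receptor genes Bmpr1a and Bmpr2, and the genes Id1, Id2, Id3 and Id4. They were chosen by name: every probe set annotated to exactly 1 symbol, that of a listed gene, was taken. This gave 19 probe sets for 10 genes, of 14217 genes named on the array. The cells were RK3E, an epithelial line from rat kidney that an adenovirus oncogene made immortal, and transcripts were measured on 6 1-colour Affymetrix arrays. On 4 arrays the cells had been transformed by GLI1, the zinc finger factor that carries the Hedgehog signal to its target genes. They were transfected with a GLI1 expression construct by lipofection, and single foci were picked and kept growing. Of these, 1 array is labelled clone I (replicate 2), 2 are labelled clone II (replicates 1 and 2) and 1 names no clone (replicate 1, called the unnamed-clone array below). Whether the unnamed-clone array is of clone I, of clone II or of another focus is not known. The other 2 arrays are of parental RK3E cells (replicates 1 and 2), and all cells were kept in the same medium with serum. The labels name no promoter for the construct and no control transfected with an empty vector, so GLI1, transfection and growth from a focus cannot be told apart, and the 2 clone II arrays share a founder.

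Gli1, read by a rat probe set, had a log2 signal of 11.71 to 13.15 on the transformed arrays and of 5.17 and 6.50 on the parental arrays. Whether this probe set reads the construct, the cells' own gene or both was not tested. Array medians ran from 568 to 696 in signal. The GAPDH 3'/5' ratio, which climbs as RNA breaks down, was 1.39 to 2.09 on 4 arrays, 7.52 on clone II replicate 1 and 3.66 on parental replicate 1. Of 8 epithelial markers, Krt7, Krt18, Krt19 and Cdh1 lay below the signal filter, Cldn1 rose, Jup fell, and Krt8 and Epcam did not pass. Their summed signal was 4971 to 13660 on the transformed and 14080 to 16180 on the parental arrays, where Jup was by far the brightest (log2 13.76 and 13.46). Krt8 was higher on the unnamed-clone and clone I arrays (12.06 and 12.57) than on the parental ones (10.08 and 10.40). In clone II it was lower (9.07 and 9.23). The summed signal of 9 fibroblast and mesenchymal markers was 5300 to 17850 on the transformed and 157900 to 175600 on the parental arrays. Of the 5 tested 3 fell (Col1a1, Col1a2 and Col3a1), and these were by far the brightest on the parental arrays (log2 15.11 to 16.11). The other tested markers, Pdgfra and Fbln1, did not pass, with log2 differences of -0.06 and 0.13. Of the untested ones Pdgfrb and Thy1 were lower on all transformed arrays, and Lum and Dcn overlapped between the groups. Summed signals of 4 endothelial markers were 465.8 to 823.9 and 698.5 to 699.9, and those of 3 immune markers 337.7 to 646.2 and 490.7 to 499.3, with none tested. Those of 5 neural markers were 2904 to 3955 and 7276 to 7591 (2 of 4 tested fell). Those of 4 osteoblast markers were 11150 to 32790 and 556.4 to 811.4. On the transformed arrays Spp1, the 1 tested, was by far the brightest of these (log2 13.36 to 15.00), and it rose. Of the untested ones Ibsp was higher on all transformed arrays, while Alpl and Bglap overlapped between the groups. The part of these shifts in the results below was not tested. In such bulk samples, fewer cells of a type and less RNA per cell cannot be told apart.

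Which BMP genes differ once GLI1 has transformed the line was asked by comparing the 4 transformed with the 2 parental arrays. Bmp7 and Id4 rose, while Bmp2, Bmp4, Bmp6, Bmpr2, Id1, Id2 and Id3 fell, and Bmpr1a did not pass. Each gene is given here by its probe set of highest mean signal. Changes ran from a 21.1-fold fall of Bmp2 to a 10.7-fold rise of Bmp7. A probe set was tested where its mean log2 signal over all arrays lay above the 40th percentile (8.33), and "rose" and "fell" mean a Benjamini-Hochberg adjusted p under 0.05 by limma over all tested probe sets. Of the 19 probe sets 13 were tested, at least 1 for each gene: 5 rose, 7 fell and 1 did not pass. Over all 18625 tested probe sets 5.84% rose and 7.25% fell, and with 1 probe set a gene 7.80% of 10240 genes rose and 7.75% fell. The members were chosen with earlier results of these data known, and 4 of the 5 risen probe sets are of Id4. The transformed arrays lay entirely above the parental ones for 5 of the 13 and entirely below for 8, so that none overlapped. Over all tested probe sets 19.0% lay entirely above and 20.2% entirely below, 39.2% in all. The median log2 difference was -1.35 over the 13 and 0.005 over all tested. Each removal of arrays below also lowered both counts over all tested probe sets, from 1087 risen and 1351 fallen. They were 599 and 900 without clone I, and 906 and 1127 without clone II replicate 2. They were lower still where 1 parental array was left. With both high-GAPDH arrays left out (clone II replicate 1 and parental replicate 1), 4 of the 13 rose (Bmp7 and 3 of the Id4 probe sets) and 1, of Bmp2, fell. Without parental replicate 1, 4 rose and 2 fell, without parental replicate 2, 2 rose and 2 fell, without clone I, 4 rose and 3 fell, and without clone II replicate 2, 5 rose and 4 fell.

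**Figure D1:**
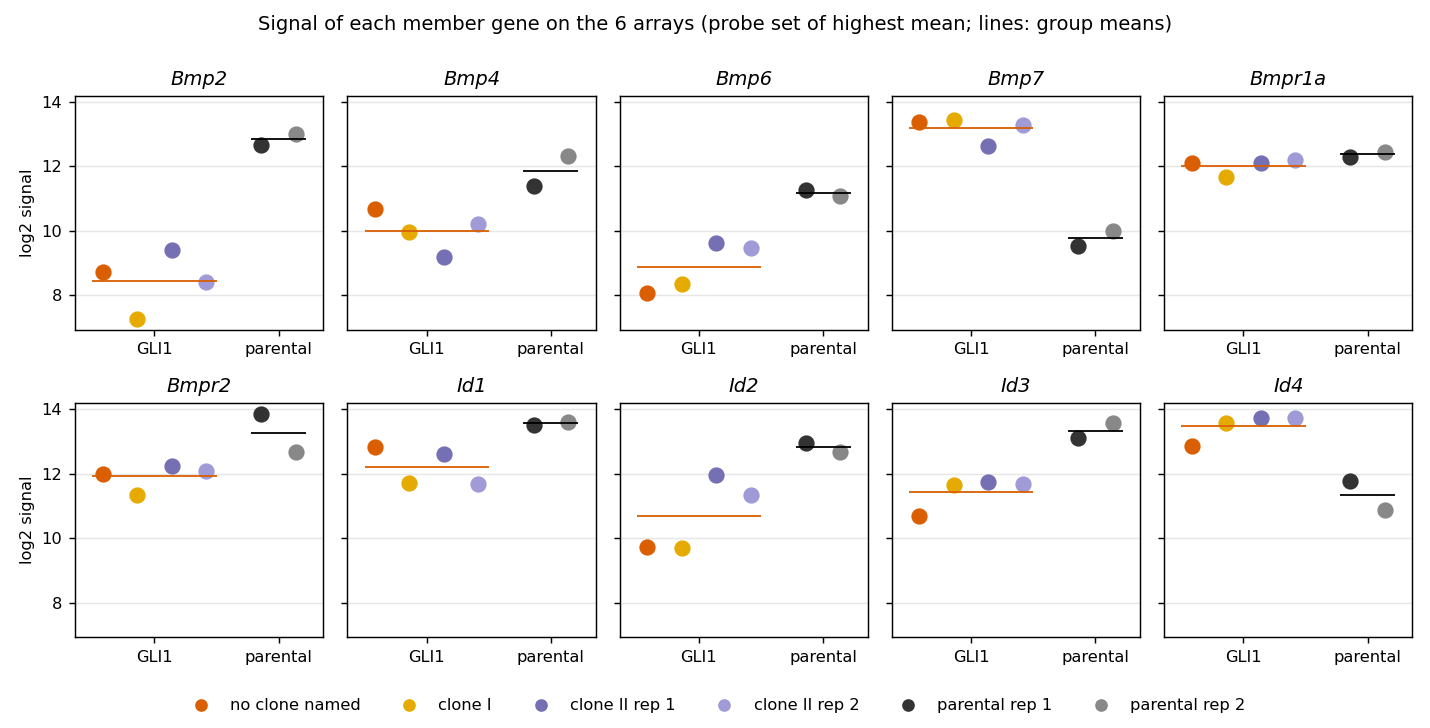
Log2 signal (vertical axis) of the 10 genes on the 4 GLI1-transformed and 2 parental arrays, 1 point an array, with lines at the group means; signals are not comparable between genes. Every transformed point lies above both parental points for Bmp7 and Id4 and below both for the other 8 genes, by a small margin for Bmpr1a.

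Among the ligands, the change of Bmp2 was the largest of all members. BMP2 is a strong inducer of bone and cartilage and, with BMP4, forms the subgroup closest to fly Dpp. The log2 signal of Bmp2 (probe set 1398270_at) was 12.67 and 13.01 on the parental arrays, 9.39 and 8.40 in clone II, 7.26 in clone I and 8.72 on the unnamed-clone array. Both parental arrays were far above all transformed ones. From a parental mean of 12.84 ± 0.24 (SD, n = 2) to 8.44 ± 0.89 (SD, n = 4), Bmp2 fell by 4.40 (SE 0.51, adjusted p = 0.0011, limma). This call was kept under each of the 14 alternatives that tested the probe set, with log2 differences of -4.88 to -4.00. The second Bmp2 probe set, 1368945_at, was dimmer and lay below the filter. It read 10.09 and 9.88 in the parental cells, 6.86 and 5.97 in clone II, 6.35 in clone I and 5.49 on the unnamed-clone array. It thus split the arrays in the same way, with a log2 difference of -3.82 (adjusted p = 0.00697 with no filter).

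Bmp4, which patterns mesoderm and the ureteric tree, was high in the parental cells by a smaller margin. Its log2 signal was 11.39 and 12.32 on the parental arrays, 9.17 and 10.21 in clone II, 9.97 in clone I and 10.66 on the unnamed-clone array. The lower parental value stood 0.74 above the highest transformed one. Bmp4 fell 3.62-fold, from 11.86 ± 0.65 (SD, n = 2) to 10.00 ± 0.62 (SD, n = 4) (log2 -1.86, SE 0.42, adjusted p = 0.0219). The call was lost without parental replicate 1 (adjusted p = 0.066), parental replicate 2 (0.192) or clone I (0.0547).

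Bmp6 and Bmp7 encode ligands of one subgroup, related to fly 60A, and they moved in opposite directions. Bmp6, best known for setting hepcidin in the liver, gave log2 signals of 11.25 and 11.08 on the parental arrays, 9.63 and 9.46 in clone II, 8.36 in clone I and 8.06 on the unnamed-clone array (probe set 1388920_at). The 3 kinds of array formed 3 separate levels, lowest on the clone I and unnamed-clone arrays and highest in the parental cells. Bmp6 fell 4.88-fold (log2 -2.29, SE 0.47, adjusted p = 0.0149), from 11.16 ± 0.12 (SD, n = 2) to 8.88 ± 0.79 (SD, n = 4). Without parental replicate 1 the adjusted p was 0.142, and without parental replicate 2 it was 0.0954. The other 3 Bmp6 probe sets were below the filter. Of these, 1388201_at read 9.59 and 9.41 on the parental arrays, 8.12 and 7.68 in clone II, 3.73 in clone I and 6.98 on the unnamed-clone array. The dimmest, 1378427_at and 1378827_at, overlapped between the groups, with differences of -1.26 and -0.38, the last of which ran from -1.02 to 0.25 over the alternatives.

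Bmp7 was high on every transformed array. Its log2 signal was 9.51 and 10.00 on the parental arrays, 12.63 and 13.27 in clone II, 13.42 in clone I and 13.38 on the unnamed-clone array. All transformed values lay within 0.79 of each other and at least 2.63 above the higher parental one. It rose 10.7-fold (log2 3.42, SE 0.27, adjusted p = 0.000168), from 9.76 ± 0.34 (SD, n = 2) to 13.17 ± 0.37 (SD, n = 4). Under all 15 alternatives it stayed past the threshold, at 3.18 to 3.66, with a highest adjusted p of 0.0048. Of the 4 ligand genes, Bmp7 was thus the one that rose, measured by 1 probe set.

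**Figure D2:**
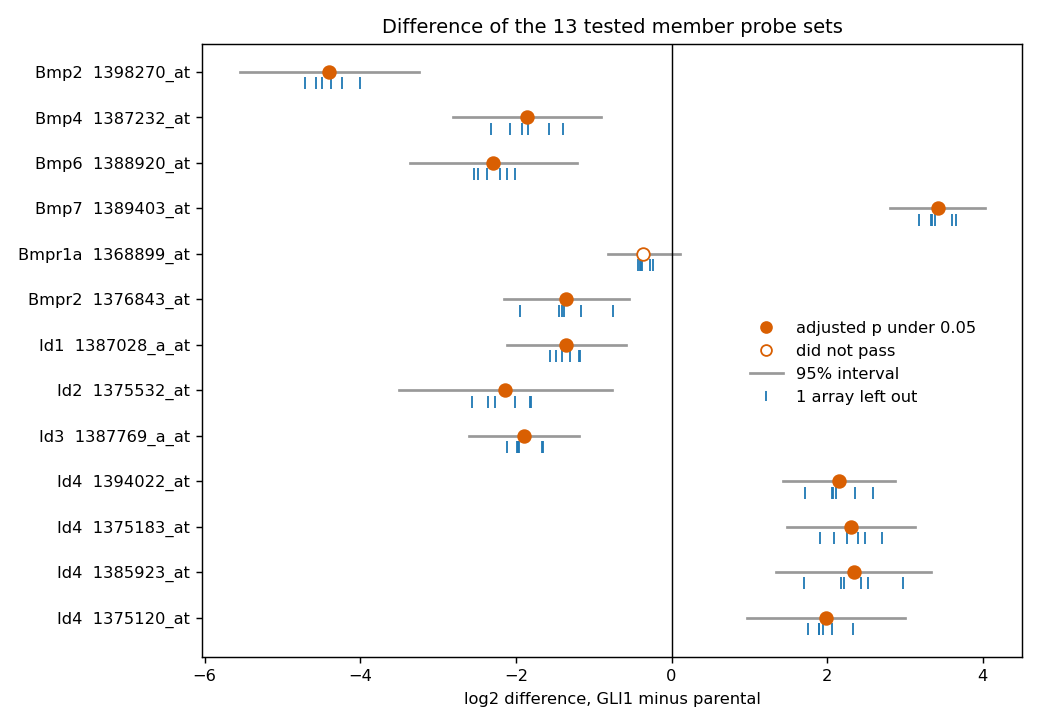
Log2 difference, GLI1-transformed minus parental (horizontal axis), of the 13 tested probe sets, labelled by gene and probe set. Circles are the estimates, filled where the adjusted p is under 0.05, grey lines are 95% intervals without adjustment for the number of tests, and blue ticks are the estimates with 1 array left out. All ticks of a probe set lie on the same side of 0; Bmp7 and Id4 lie to the right and the others to the left.

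Of the 2 receptor genes, Bmpr2 fell and Bmpr1a did not pass. Bmpr1a encodes ALK3, a type I receptor that binds BMP2 and BMP4 with high affinity. Its log2 signal was 12.29 and 12.45 on the parental arrays, 12.09 and 12.19 in clone II, 11.67 in clone I and 12.10 on the unnamed-clone array. The transformed arrays were all lower, the nearest pair by 0.10. The difference of -0.36 (SE 0.21, 95% interval -0.82 to 0.11, adjusted p = 0.3) did not pass, and the interval leaves room for a decrease of up to 0.82.

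Bmpr2, the type II receptor gene whose loss causes heritable pulmonary hypertension, read 13.86 and 12.67 on the parental arrays, 12.23 and 12.09 in clone II, 11.34 in clone I and 12.00 on the unnamed-clone array (1376843_at). The parental arrays differed from each other by more than parental replicate 2 differed from clone II. Bmpr2 fell 2.55-fold (log2 -1.35, SE 0.35, adjusted p = 0.0379), from 13.27 ± 0.84 (SD, n = 2) to 11.92 ± 0.40 (SD, n = 4). Without parental replicate 1, which has the higher GAPDH ratio of the parental pair, the difference was -0.75 (adjusted p = 0.334), and the call was also lost without clone I (0.0776) or clone II replicate 2 (0.0564), with no intensity trend (0.0724), or with arrays centred on their medians (0.063). Its second probe set, 1394667_at, was dim (5.23 to 7.39 on transformed arrays, 7.30 and 7.90 on parental ones) and the groups overlapped.

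Id1, Id2 and Id3 each fell and Id4 rose. Id1 and Id3 are the members most often used to read BMP signalling. For Id1 the log2 signal was 13.51 and 13.62 on the parental arrays, 12.61 and 11.67 in clone II, 11.72 in clone I and 12.83 on the unnamed-clone array. The transformed arrays spread over 1.16, with the unnamed-clone array and clone II replicate 1 in the upper part of that range and clone I and clone II replicate 2 in the lower. This split follows the replicate number, with both replicate 1 arrays high and both replicate 2 arrays low. It also follows the GAPDH ratio (2.09 and 7.52 against 1.45 and 1.39), so number and ratio cannot be told apart here. The parental pair did not show it (13.51 for replicate 1 and 13.62 for replicate 2). Id1 fell 2.55-fold (log2 -1.35, SE 0.34, adjusted p = 0.032), from 13.56 ± 0.08 (SD, n = 2) to 12.21 ± 0.60 (SD, n = 4). With the replicate number as a block the adjusted p was 0.0141 (limma). The call was lost without parental replicate 1 (adjusted p = 0.179), parental replicate 2 (0.175), clone I (0.0726) or clone II replicate 2 (0.0546), and with no intensity trend (0.0658).

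Id3, whose protein holds back E proteins in lymphocytes and muscle precursors, gave 13.11 and 13.57 on the parental arrays, 11.74 and 11.68 in clone II, 11.65 in clone I and 10.70 on the unnamed-clone array. The unnamed-clone array was low, and the other 3 transformed arrays lay within 0.09 of each other. Id3 fell 3.72-fold (log2 -1.89, SE 0.31, adjusted p = 0.00576), from 13.34 ± 0.32 (SD, n = 2) to 11.44 ± 0.49 (SD, n = 4), and without parental replicate 2 the adjusted p was 0.0754.

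Id2, which also binds the retinoblastoma protein, had the widest spread between transformed arrays of the 10 genes (SD 1.14). Its log2 signal was 12.95 and 12.68 on the parental arrays, 11.95 and 11.34 in clone II, 9.69 in clone I and 9.73 on the unnamed-clone array (1375532_at). All transformed arrays were below the parental ones, clone II by much less than the others. Id2 fell 4.40-fold over the 4 arrays (log2 -2.14, SE 0.60, adjusted p = 0.0487), from 12.82 ± 0.19 (SD, n = 2) to 10.68 ± 1.14 (SD, n = 4). The call was lost under 11 of 15 alternatives: median centring, quantile normalization, no filter, no intensity trend, the replicate number as a block (adjusted p = 0.0588), the removal of both high GAPDH arrays, and the removal of any 1 array but clone II replicate 1. The direction stayed the same, at -2.56 to -1.81.

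Id4, a regulator of neural and mammary progenitors and of osteoblast differentiation, was measured by 4 probe sets, and all 4 rose. The brightest, 1394022_at, read 11.77 and 10.88 on the parental arrays, 13.72 and 13.74 in clone II, 13.59 in clone I and 12.85 on the unnamed-clone array. Every transformed array exceeded both parental ones by at least 1.08. It rose 4.44-fold (log2 2.15, SE 0.32, adjusted p = 0.0035), from 11.33 ± 0.62 (SD, n = 2) to 13.48 ± 0.42 (SD, n = 4), and stayed past the threshold under all 15 alternatives.

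The other Id4 probe sets gave log2 differences of 2.31 (1375183_at, adjusted p = 0.00479), 2.34 (1385923_at, 0.0102) and 1.98 (1375120_at, 0.0218). They measure the same gene in the same RNA and are no independent replicates. On 1375183_at the transformed arrays read 11.22 to 12.43 and the parental ones 9.87 and 9.07. On 1375120_at the signals were 8.48 and 8.32 in the parental cells, 11.05 and 10.64 in clone II, 10.51 in clone I and 9.34 on the unnamed-clone array. On 1385923_at they were 8.81 and 7.55, 10.98 and 10.90, 10.23, and 9.96, in the same order. In both, the unnamed-clone array was lowest among the transformed and above the parental arrays. Without parental replicate 2, all 3 lost their calls (adjusted p = 0.0614, 0.0934 and 0.13), and 1375120_at also did without parental replicate 1 (0.134) or clone I (0.0595).

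The 250 bases before the annotated start of Id1, Id2 and Id3 are shown because each of these genes fell. They come from RefSeq (GRCr8), which matched 8 of the 10 genes by symbol, all but Bmp2 and Bmp7. Each is written 5′ to 3′ along its gene's strand: Id1 at chr3:161671314-161671563 (plus), Id2 at chr6:47470996-47471245 (minus) and Id3 at chr5:153656041-153656290 (plus). Capitals mark matches to the E-box letters CANNTG, the kind of site that E proteins bind, or to TATAAA, on either strand.
Id1: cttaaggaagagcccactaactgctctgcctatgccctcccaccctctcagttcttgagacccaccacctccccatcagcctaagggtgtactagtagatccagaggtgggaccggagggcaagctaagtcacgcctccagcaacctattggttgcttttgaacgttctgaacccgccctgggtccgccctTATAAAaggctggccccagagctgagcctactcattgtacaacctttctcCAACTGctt
Id2: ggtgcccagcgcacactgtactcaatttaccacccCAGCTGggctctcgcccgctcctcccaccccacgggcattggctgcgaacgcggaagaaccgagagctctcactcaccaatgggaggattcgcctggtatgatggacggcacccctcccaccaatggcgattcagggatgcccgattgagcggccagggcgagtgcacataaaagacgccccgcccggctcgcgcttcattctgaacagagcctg
Id3: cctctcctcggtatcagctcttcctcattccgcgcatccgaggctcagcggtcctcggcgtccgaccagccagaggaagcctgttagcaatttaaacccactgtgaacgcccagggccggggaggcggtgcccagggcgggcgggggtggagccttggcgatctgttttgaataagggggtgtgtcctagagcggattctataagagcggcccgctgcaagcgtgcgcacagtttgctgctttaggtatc

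Id1 held 1 E-box match, starting 9 bases before the start, and 1 TATAAA match at 59 bases before it. Id2 held 1 E-box match at 215 bases, and Id3 held neither. The same length before Id4 held 0 matches to either, while Bmp4 held 2 E-box matches. Over all 33465 such RefSeq windows, 65.5% held the E-box letters and 12.9% the TATA letters. A GC-rich element bound by Smad1 and Smad5, with the letters GGCGCC, was searched on both strands too and occurs in 8.70% of all windows. An element bound by GLI factors, with the letters GACCACCCA, occurs in 0.338%, and the Smad palindrome, with the letters GTCTAGAC, in 0.173%. None of the 8 windows held any of these. Sites outside these windows were not searched.

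Whether the transformed arrays differ among themselves was asked by setting the 2 clone II arrays against the other 2 GLI1 arrays in a model with 3 groups. Placing the unnamed-clone array with clone I is an assumption, so the test compares these arrays and not known clones. No tested member probe set passed (0 of 13 by limma, and 0.129% of all tested probe sets), while 3 of the 13 had an unadjusted p under 0.05, as had 8.65% of all tested probe sets. Id2 came nearest: it was 3.82-fold higher in clone II (log2 1.93, SE 0.27, 95% interval 1.31 to 2.55 without adjustment, adjusted p = 0.0565). It passed with median centring (adjusted p = 0.0347) and with the replicate number as a block (0.0172). The share of all tested probe sets that passed under those settings is not given here. Without the unnamed-clone array, which leaves clone I alone on that side, the difference was 1.95 (adjusted p = 0.194). Against the parental arrays, 3.99% of all tested probe sets rose and 5.74% fell in clone II, and 5.57% rose and 6.83% fell in the other GLI1 arrays. In that comparison Id2 fell by 3.10 on the other GLI1 arrays (adjusted p = 0.000438) and by 1.17 in clone II (0.0319). The second Id2 probe set, untested, read 5.59 and 5.39 on the other GLI1 arrays, 8.29 and 8.64 in clone II, and 7.83 and 8.94 in the parental cells. On it clone II lay within the parental range, and the other GLI1 arrays lay at least 2.23 below.

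Bmp6 did not pass in this test (clone II minus the others, log2 1.34, SE 0.33, adjusted p = 0.226). Against the parental arrays it fell by 2.96 on the other GLI1 arrays (adjusted p = 0.00135) and by 1.62 in clone II (0.0199). For the brightest Id4 probe set the rise over the parental arrays was 2.41 in clone II (adjusted p = 0.00408) and 1.89 on the other GLI1 arrays (0.00937). Bmp7 rose by 3.19 in clone II (0.000514) and by 3.64 on the others (0.000214). Their differences, clone II minus the other GLI1 arrays, were 0.51 (95% interval -0.26 to 1.28) and -0.45 (-1.09 to 0.19), and did not pass. The epithelial marker Krt8 differed between the same arrays (clone II minus others, log2 -3.17, adjusted p = 0.0157), and its part was not tested.

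**Figure D3:**
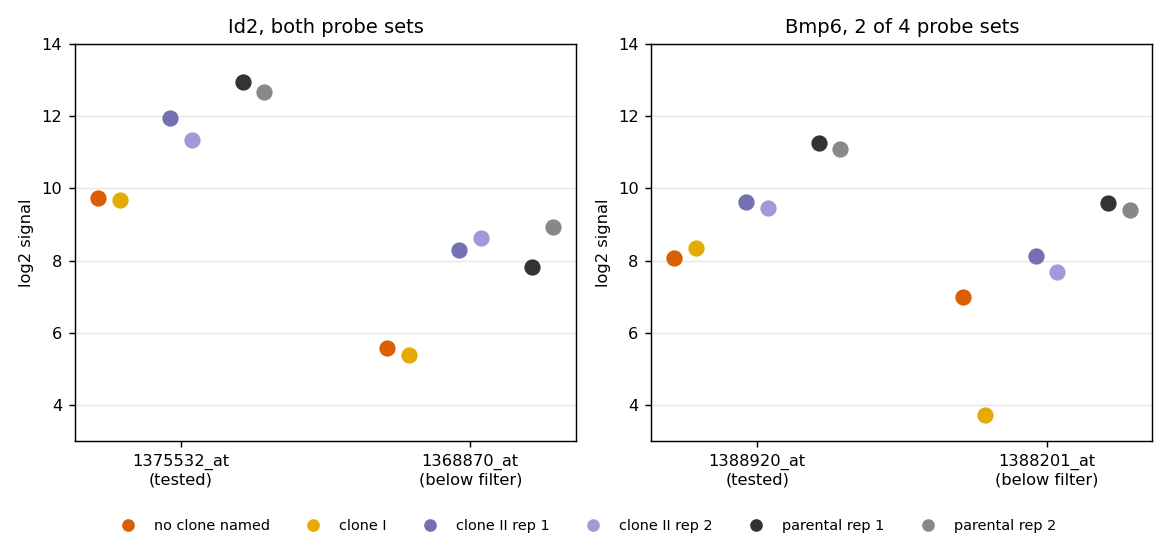
Log2 signal (vertical axis) of both Id2 probe sets and of the 2 brightest Bmp6 probe sets on each of the 6 arrays, 1 point an array. In each panel the unnamed-clone array and clone I are lowest, and clone II is higher. The parental arrays are highest except on the dim Id2 probe set, where clone II lies between them; the dimmer probe sets were below the filter and not tested.

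Likeness between genes was measured as the root mean square difference of their log2 signals over the 6 arrays, after each probe set's own mean was subtracted. Of the 45 pairs among the 10 genes, Bmp6 and Id2 were closest (0.30), followed by Bmp6 and Id3 (0.46). The pairs among Id1, Id2 and Id3 differed by 0.70 to 0.98. Bmp7 and Id4 differed by 0.86, and Bmp2 and Bmp7 were farthest apart (3.78). Among all tested named genes, the nearest to Bmp7 was Eva1a (0.21, a log2 difference of 3.02 between the groups), the nearest to Bmp2 was Hoxa5 (0.31, -4.26), and the nearest to Id4 was Orc1 (0.22, 1.78). For Bmp4 it was Mcam (0.24), for Bmp6 Rgs10 (0.18), for Bmpr2 Grhl1 (0.21), for Id1 Als2cl (0.12), for Id2 Abca3 (0.23) and for Id3 Cald1 (0.11). Small values are easier to reach for genes that vary little, so Bmpr1a, with Abhd1 and Hadhb at 0.06, had the smallest.

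Other genes of the BMP pathway were taken from lists of 56 genes, of which 45 were on the array and 32 were tested, with 1 probe set a gene. Of these 32, 1 rose, 11 fell and 20 did not pass, where 7.80% of all 10240 tested genes rose and 7.75% fell. The median log2 difference was -0.37 over the 32 and 0.07 over all tested genes. With median centring 2 rose and 6 fell, where 1454 of all tested probe sets rose and 944 fell. Each removal of arrays below also lowered both counts over all tested probe sets from 1087 risen and 1351 fallen. The drop was largest where 1 parental array was left. Without parental replicate 1, 0 rose and 1 fell, without parental replicate 2, 0 rose and 2 fell, and without both arrays of high GAPDH ratio, 0 rose and 1 fell. Leaving out clone I, or clone II replicate 2, left 1 risen and 5 fallen, and without clone II replicate 1, 2 rose and 8 fell.

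The 4 other ligand genes on the array (Bmp3, Bmp5, Bmp8a and Gdf6) were all dim and untested. Among 7 tested receptors and co-receptors 1 rose, 2 fell and 4 did not pass, with 3 higher and 2 lower at an unadjusted p under 0.05 and a median log2 difference of 0.57. Over all tested genes 18.3% were higher and 14.9% lower at that unadjusted threshold. Acvr1, which encodes the type I receptor ALK2 used by BMP6 and BMP7, read 12.15 to 12.48 on the transformed arrays and 13.78 and 13.35 on the parental ones. It fell 2.35-fold (log2 -1.23, SE 0.20, adjusted p = 0.0051; 0.089 without parental replicate 1), and its 2 other tested probe sets did not pass (-0.74 and -0.96). Rgma, a co-receptor, rose by 0.83 (adjusted p = 0.0206), and Neo1, the receptor for that family, fell by 0.80 (0.0307; its other tested probe set by 1.10, 0.0485). Both calls were lost without either parental array, and that of Neo1 also without clone I or either clone II array and with median centring (0.0719). The type II receptor genes Acvr2a and Acvr2b gave 0.57 (adjusted p = 0.128) and 1.19 (0.205). The co-receptor gene Rgmb did not pass on either tested probe set (0.81, adjusted p = 0.0618, and 0.86, 0.0659), and on the brighter one all transformed arrays lay above the parental ones. Eng, an accessory receptor of endothelial cells, gave -0.24 (0.697).

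Among 8 tested Smads and Smad ubiquitin ligases 0 rose, 3 fell and 5 did not pass (limma; 0 higher and 3 lower at an unadjusted p under 0.05). The inhibitory Smad genes, which BMP and TGF-beta signals are known to induce, fell most: Smad7 by 3.63 (adjusted p = 0.000731) and Smad6 by 1.56 (0.00791). Smad6 read 8.92 to 9.28 on the transformed arrays and 10.56 and 10.77 on the parental ones, and its other tested probe set fell by 3.14 (0.000761). The other tested probe set of Smad7 did not pass (-1.01, adjusted p = 0.133), and Smad6 lost its call without either parental array (0.0753 and 0.0907). Of the receptor-activated Smads, Smad1 fell by 0.81 (0.0397), a call lost under 7 of 15 alternatives, and its other tested probe set did not pass (-0.98, adjusted p = 0.146). Smad5 (-0.34, adjusted p = 0.309) and Smad9 (-0.63, 0.278) did not pass either, nor did Smad4 (-0.09, 0.796).

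In the list of secreted antagonists and modulators 5 of 7 tested genes fell and 0 rose (limma; 5 lower and 0 higher at an unadjusted p under 0.05). Bmp1, a protease that frees BMPs from chordin, fell by 1.52 (adjusted p = 0.013), Fstl1 by 1.20 (0.00576), and Fst, Twsg1 and Fstl3 by 0.66 to 1.20. The second tested probe sets of Bmp1 (-0.79, adjusted p = 0.246), Fst (-1.05, 0.105) and Twsg1 (-0.52, 0.0897) did not pass, while the other tested ones of Fstl1 fell by 1.86 (0.00255) and 1.99 (0.00225). Without parental replicate 1 or 2, Bmp1 (0.128 and 0.0911) and Fstl1 (0.0554 and 0.0661) lost their calls, and Fst, Twsg1 and Fstl3 lost theirs under 7 to 9 of 15 alternatives. Nog, encoding the antagonist noggin, gave 0.56 (adjusted p = 0.442), and Chrd, encoding chordin, -1.50 (0.249). The antagonist genes Grem1 and Nbl1 were bright on the parental arrays alone and so lay below the filter. Grem1 read 3.46 to 6.83 against 11.70 and 10.76, and Nbl1 3.69 to 6.16 against 11.44 and 10.90, with adjusted p = 0.00533 and 0.00227 when no filter was used. Bmper, also below the filter, read 4.21 to 7.70 against 9.52 and 9.10 and did not pass with no filter (limma, adjusted p = 0.0901).

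Of 7 tested genes reported as BMP responsive elsewhere, 0 rose, 1 fell and 6 did not pass (limma; 0 higher and 2 lower at an unadjusted p under 0.05). Hey1, a Notch and BMP target, fell by 1.60 (adjusted p = 0.0485), a call lost under 9 of 14 alternatives, among them the removal of any array but the unnamed-clone array. Msx1 gave 0.25 (adjusted p = 0.681), Dlx5 -0.02 (0.971), Bambi 0.01 (0.994) and Atoh8 -0.08 (0.864). Their groups overlapped. Junb (-0.75, adjusted p = 0.172) and Gata2 (-0.47, 0.45) did not pass, with all transformed arrays below the parental ones. The E protein genes Tcf3, Tcf4 and Tcf12, whose products pair with Id proteins, gave -0.41 (0.484), -0.26 (0.439) and -0.15 (0.648), and 0 of the 3 passed, also at an unadjusted p under 0.05.

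**Figure D4:**
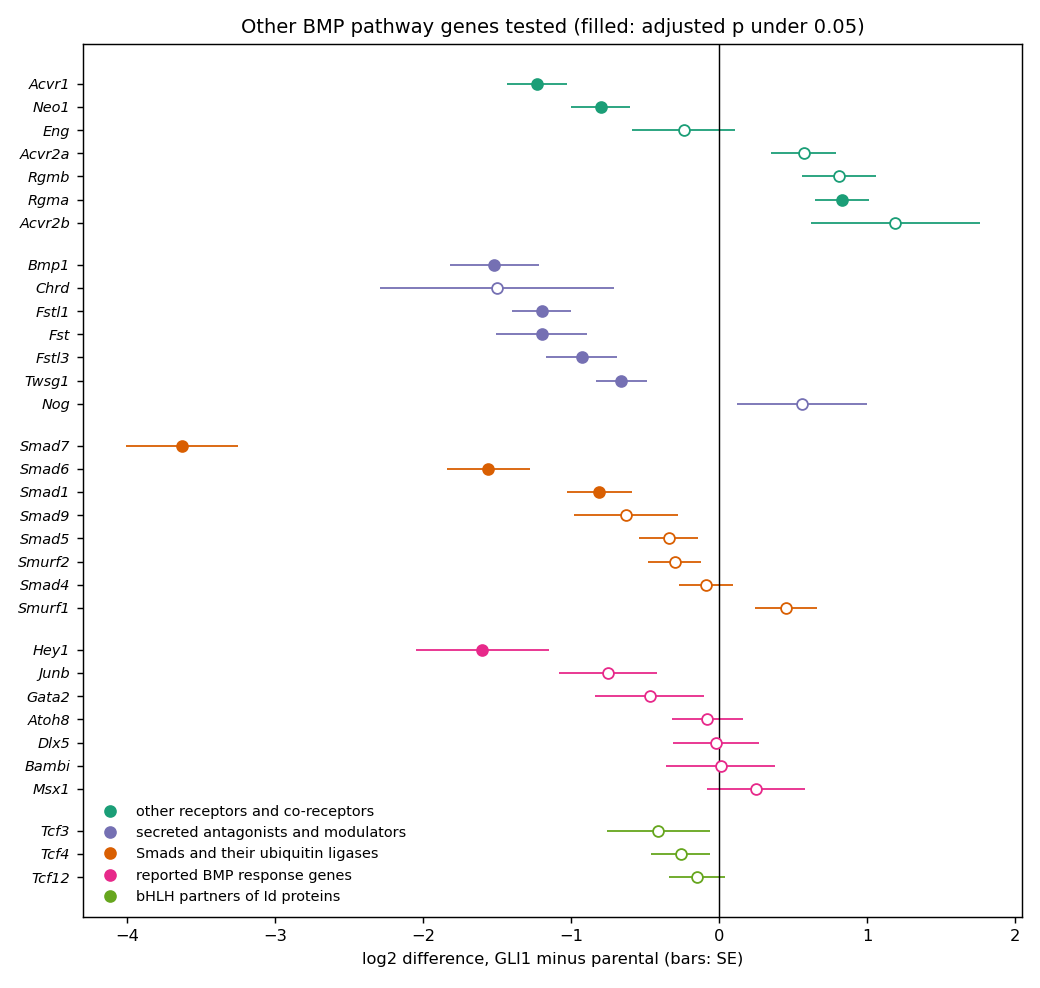
Log2 difference, GLI1-transformed minus parental (horizontal axis), with its SE, of the 32 tested other genes of the BMP pathway, coloured by list; filled circles have an adjusted p under 0.05. Filled circles lie left of 0 for 11 genes, Smad7 farthest at -3.63, and right of 0 for Rgma; 20 circles are open.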

How the data were processed

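RNA of 6 RK3E cultures was hybridised to 1-colour Affymetrix rat arrays, per the labels. The deposited values are MAS5 signal intensity values on a linear scale, per the submitters' processing notes; MAS5 scales each array, and the 2% trimmed means were equal here to within rounding. Detection calls were not used, so a dim signal is not called absent. The number of arrays limits the precision. The labels call the arrays biological replicates without saying how cultures were kept apart, so a p-value here covers just the spread of these arrays, which may be technical.

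Values were taken to log2 after a floor of 1. Of 31042 non-control probe sets, 18625 passed the filter (40th percentile). Groups were compared with limma 3.58.1 (R 4.3.3; lmFit, eBayes with an intensity trend), two-sided, with 4 residual degrees of freedom, or 3 with clone II as its own group. Errors are SDs between arrays for means and SEs for log2 differences. Symbols came from the platform annotation, checked against RefSeq identifiers; 20826 probe sets had 1 symbol.

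All member probe sets, list genes (by smallest adjusted p, with others named after their values were seen) and nearest genes were named. The members and lists were chosen with earlier results of these data known. Alternatives were 2 scalings, 32 added before the log, 2 filters, no trend, a replicate block, clone II averaged, and arrays left out.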

Additional observations from a re-analysis of the deposited data

Results flagged for a closer look

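Among the 19 member probe sets, 2 had 1 transformed array far from the other 3, by a gap above Dixon's 95% critical value for 4 values, as a share of their range; chance gives this in about 1 of 20 groups. For Id3 the gap was 0.92 of the range, with the unnamed-clone array lowest (10.70, the others 11.65 to 11.74). For the dim Bmp6 probe set 1378427_at it was 0.85, with the same array highest (7.23, the others 5.92 to 6.11). Without that array the log2 difference of Id3 was -1.65 (adjusted p = 0.00165).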

How the results depend on the processing

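With 1 array left out at a time, the tested member probe sets that rose numbered 2 to 5 and those that fell 2 to 7, and the other pathway genes that rose 0 to 2 and fell 1 to 11. Leaving out both arrays of high GAPDH ratio gave 4 and 1 for the members and 0 and 1 for the pathway genes. Over all tested probe sets both counts were lowest where 1 parental array was left. With no intensity trend 4 member probe sets fell, and 0 pathway genes rose and 6 fell, where 705 of all tested probe sets rose and 1090 fell. The filter at the 60th percentile leaves out 4 of the 13 tested probe sets. With it 3 member probe sets rose and 5 fell, where 1088 of 12417 tested probe sets rose and 1087 fell. With median centring, under which the overall median difference was 0.165 in place of 0.005, 2 pathway genes rose and 6 fell. For clone II against the other transformed arrays 0 member probe sets passed in the main fit, where 0.129% of all tested probe sets did. With median centring or with the replicate block 1 passed, Id2. The share of all tested probe sets that passed under those settings is not given here. The small Id1 difference, clone II minus the other transformed arrays, -0.14, ran from -0.69 to 0.42 with 1 array left out. For GLI1-transformed against parental cells no tested member changed sign under any alternative.

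The labels do not say whether same-numbered arrays share more than a number. With the replicate block 5 member probe sets rose and 6 fell, the call of Id2 being lost, and 1 pathway gene rose and 11 fell. Deviations of same-numbered arrays from their group means correlated at -0.03 to 0.32 between transformed and parental arrays, and over all tested probe sets the block gave 1190 risen and 1437 fallen against 1087 and 1351.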
